A study of Bos taurus with 39 samples.

Results

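The miR-148/miR-152 family (bta-miR-148a, bta-miR-148b and bta-miR-152) and the miR-200 family (bta-miR-200a, bta-miR-200b, bta-miR-200c, bta-miR-141 and bta-miR-429) were followed in bovine oocytes during in vitro maturation. The 8 members were taken by their miRNA names from the 1030 known mature miRNAs of a count table that also holds 965 predicted miRNAs, 1995 in all. Each member was described on its own and as part of its family sum.

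MicroRNAs pair with messenger RNAs through their seed, a short stretch near the 5′ end, and reduce translation and stability of the messages they bind. The miR-148/miR-152 family has DNMT1, the enzyme that maintains DNA methylation, among its known targets. The miR-200 family restrains ZEB1 and ZEB2, repressors of epithelial genes, and is a classical marker of epithelial cells. Within it, miR-200b, miR-200c and miR-429 share one seed and miR-200a and miR-141 share another, while in the genome miR-200a, miR-200b and miR-429 lie together and miR-200c and miR-141 lie together. In mice, the miR-200b and miR-429 pair is needed in the pituitary for ovulation.

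The data are 39 libraries of small RNA from oocytes of slaughterhouse ovaries, in 13 conditions with 3 libraries each. Control oocytes matured for 1, 6 or 22 h inside cumulus-oocyte complexes (COCs), the CBX group matured the same way while 100 µM carbenoxolone, which closes gap junctions, was present, the co-culture group consisted of denuded oocytes sharing medium with intact COCs across a porous membrane, and the DO group of denuded oocytes matured alone. A further 3 libraries carry the label control at 0 h. The design asks which oocyte miRNAs depend on contact with the cumulus cells and on maturation time. Each library at 1, 6 and 22 h came from 30 pooled oocytes, and per the methods COCs were stripped of cumulus cells after culture by vortexing in hyaluronidase while denuded oocytes lost their zona in pronase, so the handling also differed between the groups. In pooled oocytes, fewer cells of a type and less RNA per cell cannot be told apart.

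A library held 11985 to 175429 miRNA counts (median 70069). Levels are given as CPM, miRNA counts scaled to a common library total with TMM. A count of 0 can plausibly hide a true level of up to 3 counts. On library totals without TMM, 3 counts corresponded to 17.1 to 250.3 CPM. These floors cover counting error only. Libraries under 25000 counts were control 0 h replicate 1, control 6 h replicate 1 and CBX 22 h replicate 2. Control 0 h replicate 3 and control 6 h replicate 1 stood apart for several members, as described with the values. No list of miRNAs that define an oocyte was used, so the label was read against markers of other cells. Of the 11 miRNAs listed as linked to granulosa and cumulus cells, miR-21-3p and miR-212 had 0 counts in all 39 libraries, and miR-21-5p, miR-503-5p, miR-202 and miR-424-5p had counts in all 39, at mean levels of 4591, 1454, 638 and 491 CPM. Their summed level was 3536 to 13117 CPM. At 22 h it was 10789 to 13117 CPM in the control group against 5133 to 9674 CPM in the other 3 groups. The listed miRNAs did not move together, and miR-21-5p was the most abundant. From 1 to 22 h over the 4 groups the log2 changes were 0.51 for miR-21-5p and 0.50 for miR-132. They were -0.99 for miR-202, -0.78 for miR-424-5p, -0.33 for miR-503-5p and -0.23 for miR-224. The sum is therefore not read as an amount of cumulus cells. Of 7 blood and immune miRNAs, miR-142-3p had 0 counts in all 39 libraries and miR-451 in 29, while miR-150 was present in all 39 (mean 434 CPM) and miR-223 reached 2652 CPM. The summed level was 82.2 to 3166 CPM with a median of 491 CPM.

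The miR-148/miR-152 family was dominated by miR-148a. Its mean level over the 39 libraries was 33059 CPM (lowest 6485, median 33213, highest 53925), which placed it 3rd among the 498 known miRNAs with at least 1 count, after miR-16b and miR-10b. A median of 7.95% of all known miRNA counts of a library fell on it. It carried 102777 of the 108746 counts of its family, with a share of 85.8% to 98.9% across libraries. miR-152 followed at a mean of 1163 CPM (lowest 41.1, median 1183, highest 1870) and miR-148b at 760.1 CPM (lowest 493, median 745, highest 1340).

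The miR-200 family was lower by more than an order of magnitude, with a mean summed level of 1351 CPM (lowest 536, median 1330, highest 2145). Its most abundant member was miR-141, with a mean of 631 CPM and a range from 0 to 1084 CPM. miR-200c had a mean of 441 CPM (range 57.6 to 863) and miR-200a of 215 CPM (range 0 to 365). miR-200b had 180 counts in all libraries together and a mean of 58.1 CPM, and miR-429 had 13 counts in 11 of the 39 libraries and none in the other 28. The neighbouring pair miR-200c and miR-141 thus carried 79.3% of the counts of the family, while miR-200a supplied 78.3% of the counts of its own 3-gene cluster. By seed, miR-200b, miR-200c and miR-429 together made up 36.02% of the family counts.

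From high to low the order was miR-148a, miR-152, miR-148b, miR-141, miR-200c, miR-200a, miR-200b and miR-429. Counts rank reads rather than molecules, since the capture efficiency of each sequence was not measured. Each of the 7 neighbours in this order differed over the 39 libraries in a two-sided permutation test of signs (adjusted p between 1.75e-05 and 0.00065 over 7 tests, 100000 draws). The order was taken from the same libraries, which share conditions and replicate numbers but were treated as independent. These p-values therefore describe the ranking and are not separate support for it. The steps were unequal: miR-148a exceeded miR-152 in 39 of 39 libraries, by 4.81 on the log2 scale (SD 0.70), whereas miR-148b exceeded miR-141 in 28 of 39, by 0.34 (SD 0.60). The step from miR-152 to miR-148b was 0.52 (SD 0.65) and that from miR-141 to miR-200c 0.47 (SD 0.84). These last 3 steps were smaller than their SD between libraries.

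RefSeq gene models of the assembly ARS-UCD2.0, used here for names and neighbours only, list all 8 members. MIR148A overlaps a gene named MIR148D and MIR152 overlaps MIR148C. The miRNAs miR-148c and miR-148d had 0 counts in all 39 libraries, over 3028647 miRNA counts, which allows a level of up to 0.991 CPM.

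**Figure D1:**
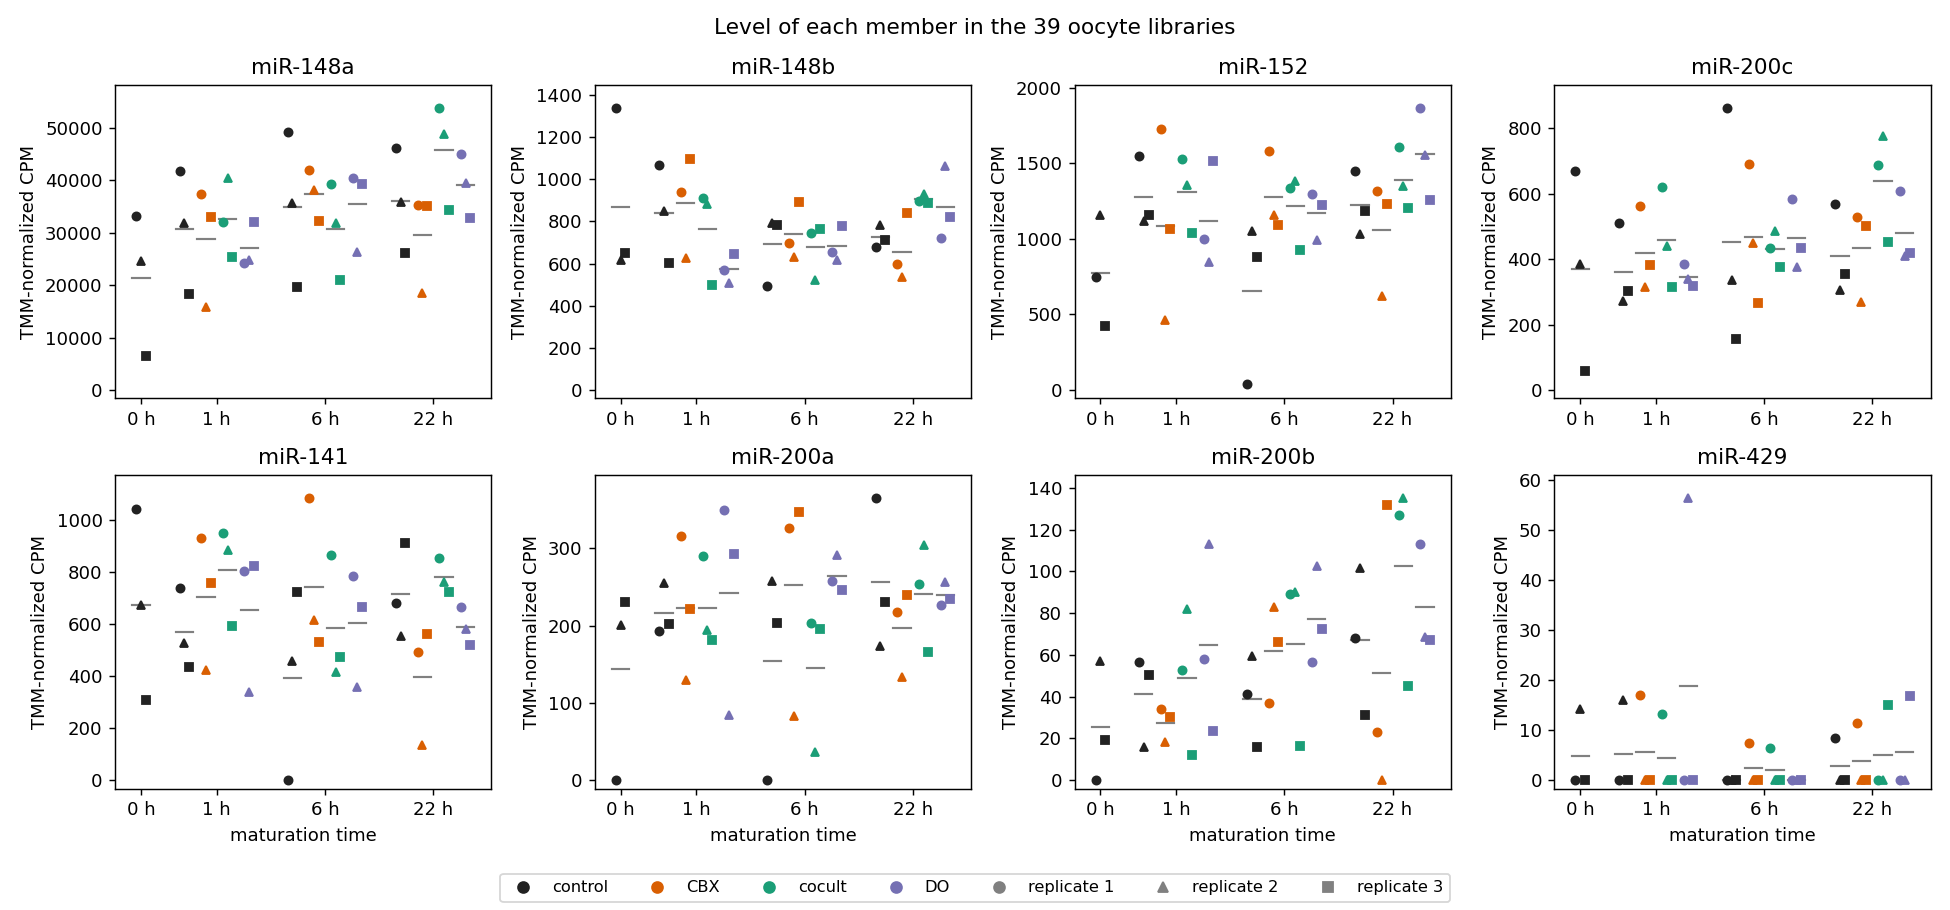
TMM-normalized CPM of each member (y axis, starting at 0, own scale in each panel) by maturation time and group (x axis; colours are groups, symbols are replicate numbers, grey bars are means of 3 libraries). miR-148a lies between 6485 and 53925 CPM, miR-152 and miR-141 drop to 41.1 and 0 CPM in control 6 h replicate 1, and miR-429 is at 0 in 28 of 39 libraries.

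miR-148a was present in all 13 conditions. The control libraries at 1 h held 41847, 31851 and 18250 CPM, those at 6 h 49340, 35609 and 19690 CPM, and those at 22 h 46244, 35936 and 26161 CPM for replicates 1, 2 and 3. Under carbenoxolone the values were 37382, 15800 and 33010 CPM at 1 h, 41936, 38134 and 32261 CPM at 6 h, and 35296, 18435 and 35207 CPM at 22 h. Both groups overlapped at each time.

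In the co-culture group miR-148a stood at 32030, 40563 and 25309 CPM at 1 h, at 39395, 31963 and 21064 CPM at 6 h, and at 53925, 48962 and 34287 CPM at 22 h. The DO group had 24276, 24783 and 32154 CPM at 1 h, 40536, 26420 and 39375 CPM at 6 h, and 45118, 39452 and 32893 CPM at 22 h. The highest condition mean was that of the co-culture group at 22 h (45725 ± 10212 CPM, SD, n = 3) and the lowest after culture that of the DO group at 1 h (27071 ± 4409 CPM, SD, n = 3), a ratio of 1.69. At 0 h the libraries held 33213, 24705 and 6485 CPM.

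Comparisons between groups at one time and between times within a group were fitted on 6 libraries each with edgeR, and pooled contrasts on the 36 libraries at 1, 6 and 22 h. Tests were quasi-likelihood tests in edgeR, with p-values adjusted by Benjamini-Hochberg over all miRNAs of a fit. A call needed an adjusted p-value under 0.05 together with a change of 1 or more on the log2 scale in either direction, and changes are second over first. The filter on low counts retained 6 members in every fit. miR-200b and miR-429 passed it in none, so they have levels but no test in the main fits.

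No member was called between groups. In the 18 comparisons at one time, 0 of 108 tests of members passed, where 21 of 7883 tests of all miRNAs did (0.266%). At an unadjusted p-value under 0.05 there were 3 of 108 (2.78%), against 5.24% of all tests. The 3 libraries of both conditions did not overlap in 6 of the 108 tests (5.56%), against 8.08% of all tests, and an exact permutation test of 3 against 3 libraries cannot go below 0.1. Both shares of the members lay under those of all miRNAs. DESeq2 called 0 as well.

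The contrast of control and carbenoxolone at 22 h compares oocytes matured for 22 h without and with the gap junction blocker. The miR-148/miR-152 sum was 48376, 37752 and 28055 CPM in the control group and 37214, 19595 and 37278 CPM in the CBX group. It was lower with CBX in replicates 1 and 2 and higher in replicate 3. The log2 fold change was -0.19 (SE 0.21, 95% confidence interval -0.70 to 0.32, adjusted p = 0.80 by edgeR).

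The miR-200 sum was 1691, 1133 and 1528 CPM in the control group and 1274, 536 and 1437 CPM with CBX at 22 h. It was lower with CBX in 3 of 3 pairs while the groups overlapped, with a log2 fold change of -0.37 (SE 0.24, interval -0.96 to 0.21, adjusted p = 0.62 by edgeR). The low CBX value comes from replicate 2, whose 12 counts over the 5 members were the fewest of the 39 libraries. miR-141 gave the widest difference, with 680, 552 and 910 CPM in the control group and 494, 134 and 563 CPM in the CBX group. Its log2 fold change was -0.78 (SE 0.34, adjusted p = 0.48 by edgeR). With these libraries a change of that size was not resolved from 0.

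Denuded oocytes were close to controls at 22 h for both sums. The miR-148/miR-152 sum in the DO group was 47710, 42071 and 34974 CPM, a log2 fold change of 0.18 against control (SE 0.13, interval -0.12 to 0.48, adjusted p = 0.87 by edgeR). The miR-200 sum was 1615, 1318 and 1259 CPM, a log2 fold change of -0.01 (SE 0.21, interval -0.51 to 0.49, adjusted p = 0.98 by edgeR). For both sums the 3 DO values lay within the range of the 3 control values.

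A few single comparisons had an unadjusted p-value under 0.05. miR-148a was higher in the co-culture group than in the control group at 22 h in 3 of 3 pairs (log2 fold change 0.29, SE 0.13, adjusted p = 0.79 by edgeR, exact permutation p = 0.3). At 6 h it was lower in the co-culture group than in the CBX group in 3 of 3 pairs (-0.34, SE 0.13, adjusted p = 0.84, exact permutation p = 0.4). In the same comparison miR-200a stood at 327, 83.0 and 347 CPM with CBX and at 204, 35.97 and 195.5 CPM in co-culture (-0.77, SE 0.28, adjusted p = 0.84, exact permutation p = 0.5). The 2-count value of replicate 2 in co-culture was the lowest relative level of 109 known miRNAs in that library. The groups overlapped in each of these comparisons. Sums followed their main members, with -0.32 (SE 0.12, adjusted p = 0.83) for miR-148/miR-152 and -0.47 (SE 0.19, adjusted p = 0.84) for miR-200a with miR-141 from CBX to co-culture at 6 h, and 0.29 (SE 0.13, adjusted p = 0.82 by edgeR) for miR-148/miR-152 from control to co-culture at 22 h.

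Comparisons with the control group at 6 h changed with 1 library. Control 6 h replicate 1, with 20180 counts, held 1 count of miR-152, 0 of miR-141 and 0 of miR-200a, but 1200 of miR-148a and 21 of miR-200c. Scaled from the median of the other libraries, 29.0 counts of miR-152 and 16.2 of miR-141 would correspond to its depth, and miR-141 was the lowest of 85 known miRNAs in these terms. The zero counts allow up to 149 CPM on the library total without TMM. With this library miR-152 was 1.06 higher (log2, SE 0.68) in the CBX group than in the control group at 6 h, and 0.27 (SE 0.24) without it. For miR-141 the values were 0.90 (SE 0.80) and 0.01 (SE 0.33). Neither was called in either fit. The miR-200 sum was 905, 1112 and 1098 CPM in the control group and 2145, 1228 and 1207 CPM with CBX at 6 h, without overlap, and its change of 0.32 (SE 0.39) was 0.18 (SE 0.24) without that library. Other values were larger without it: miR-200c then was 0.60 higher with CBX (SE 0.32), 0.88 in co-culture (SE 0.38) and 0.71 in the DO group (SE 0.47), and the sum of miR-200b, miR-200c and miR-429 was 0.69 (SE 0.33), 0.85 (SE 0.34) and 0.80 (SE 0.45) higher. The smallest adjusted p-value of these 6 was 0.65 by edgeR.

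Pooled over the 3 times, the groups differed little. The log2 fold changes of the 6 tested members between groups lay between -0.25 (miR-141, co-culture against DO) and 0.34 (miR-200c, control against co-culture). Pooled over groups or times, none of the 54 intervals reached a 2-fold change: the lowest bound was -0.74 and the highest 0.83. This additive fit takes a shift between groups as the same at each time. In the 18 comparisons at one time the intervals of the 6 tested members reached -2.49 (miR-200a) and 2.71 (miR-141). The pooled bounds therefore do not exclude a 2-fold change at a single time. For control against CBX the miR-148/miR-152 sum gave -0.04 (SE 0.16, interval -0.37 to 0.29) and the miR-200 sum 0.13 (SE 0.14, interval -0.16 to 0.41). For control against DO the values were -0.01 (SE 0.16, interval -0.34 to 0.32) and 0.13 (SE 0.14, interval -0.16 to 0.41). In these 6 pooled contrasts 0 of 36 member tests were called, against 0.139% of all tests, and 0 of 36 had an unadjusted p-value under 0.05, against 5.61%.

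The other pooled group contrasts of the sums had adjusted p-values from edgeR of at least 0.82. Control against co-culture gave 0.07 (SE 0.16) for the miR-148/miR-152 sum and 0.25 (SE 0.14) for the miR-200 sum. CBX against co-culture gave 0.11 (SE 0.16) and 0.13 (SE 0.14), CBX against DO 0.03 (SE 0.16) and -0.003 (SE 0.14), and co-culture against DO -0.08 (SE 0.16) and -0.13 (SE 0.14). Each was smaller than 2 standard errors.

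**Figure D2:**
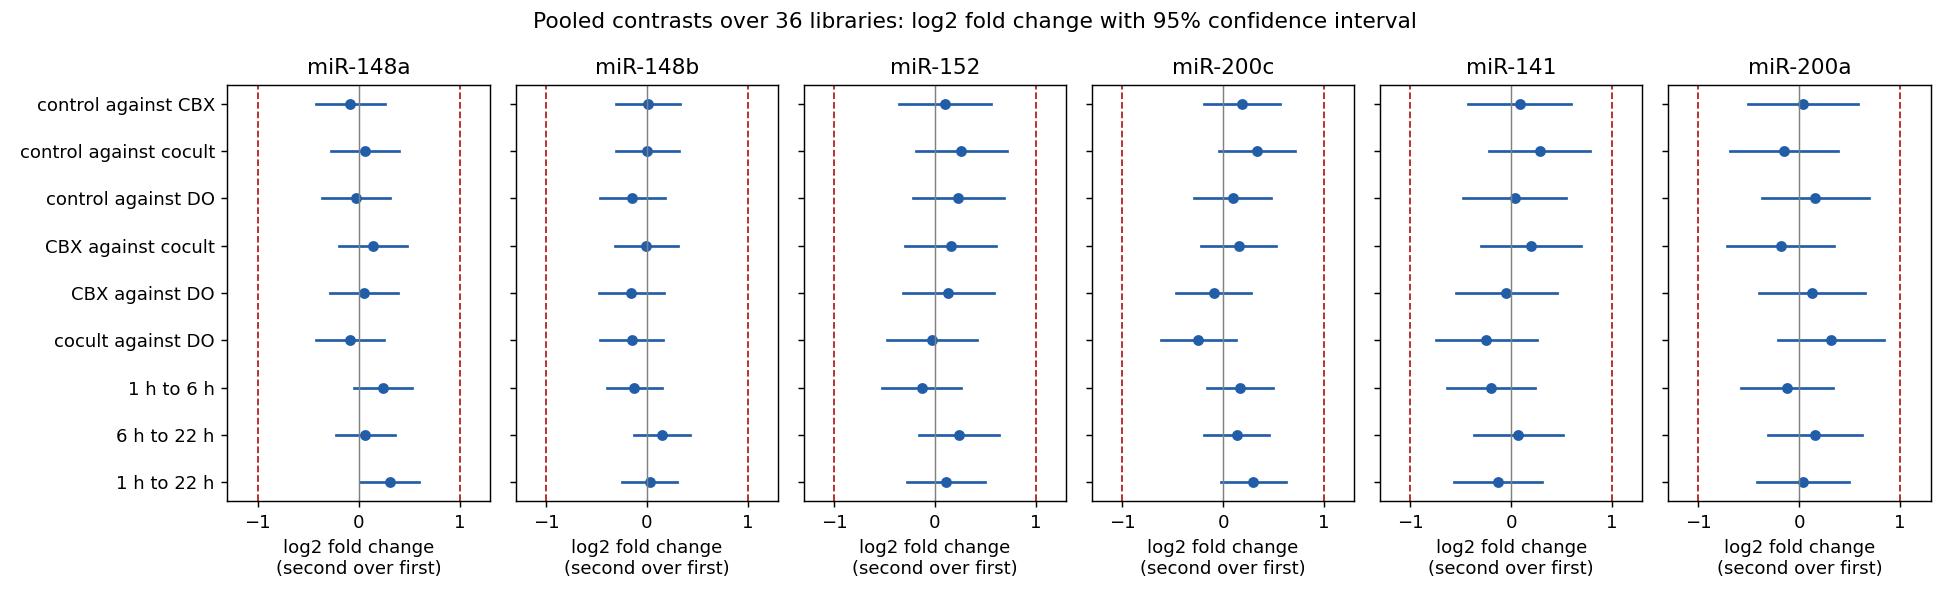
Log2 fold change (x axis, second over first) of the 6 tested members in the 6 pooled group contrasts and 3 pooled time contrasts (y axis), fitted on 36 libraries. Points are estimates, bars are 95% confidence intervals and dashed lines mark a 2-fold change; the 54 intervals lie between -0.74 and 0.83.

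Time gave the clearest values for miR-148a, without a call. From 1 to 22 h over the 4 groups it was 0.31 higher (log2, SE 0.14, interval 0.02 to 0.60, unadjusted p = 0.038, adjusted p = 0.17 by edgeR). The miR-148/miR-152 sum was 0.31 higher (SE 0.14, adjusted p = 0.15), and the sum of miR-200b, miR-200c and miR-429 was 0.35 higher (SE 0.16, adjusted p = 0.15). The whole miR-200 sum differed by 0.09 (SE 0.12, adjusted p = 0.65). From 1 to 6 h the family sums gave 0.25 (SE 0.14) and -0.02 (SE 0.12), and from 6 to 22 h 0.07 (SE 0.14) and 0.11 (SE 0.12). Over all miRNAs, 26.5% had an unadjusted p-value under 0.05 in the contrast of 1 to 22 h, 11.0% an adjusted one, and 1.67% passed with the fold threshold. Without the 3 libraries under 25000 counts the adjusted p-values were 0.047 for miR-148a (log2 fold change 0.38), 0.039 for its family (0.39) and 0.024 for the miR-200b, miR-200c and miR-429 sum (0.42), still under the fold threshold. With library sizes from deduplicated reads the changes were 0.099, 0.087 and 0.17, with adjusted p-values of 0.81, 0.84 and 0.66 by edgeR, while the median of all miRNAs moved by -0.19. The 11.0% belongs to the main fit, and no share of all miRNAs is given for the fit without the 3 libraries. Its adjusted p-values under 0.05 are therefore not read as particular to the members.

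Within groups the same interval gave 0.27 (SE 0.12) in controls, 0.11 (SE 0.21) with CBX, 0.42 (SE 0.12) in co-culture and 0.47 (SE 0.24) in the DO group for miR-148a. All 3 pairs were higher at 22 h in control, co-culture and DO oocytes, and 2 of 3 with CBX. The smallest adjusted p-value of these was 0.38 by edgeR, in co-culture, where an exact permutation test gave p = 0.2. Whether groups differed in this change was tested by interaction, with estimates of -0.13 (SE 0.40) for CBX, 0.25 (SE 0.40) for co-culture and 0.25 (SE 0.40) for DO against control. No such difference was resolved.

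Between 6 and 22 h the co-culture group gave 0.52 for miR-148a (SE 0.15, adjusted p = 0.58 by edgeR, exact permutation p = 0.2) and 0.52 for the sum of miR-200b, miR-200c and miR-429 (SE 0.21, adjusted p = 0.59, exact permutation p = 0.3). The miR-148/miR-152 sum gave 0.50 (SE 0.15, adjusted p = 0.57 by edgeR). Without replicate 1 its change was 0.60, and the adjusted p-value by edgeR was 0.029. No share of all miRNAs is given for that fit, so this value is not read as particular to the family. In the DO group miR-152 went from 1300, 992 and 1227 CPM at 6 h to 1870, 1558 and 1259 CPM at 22 h (0.49, SE 0.19, adjusted p = 0.43, exact permutation p = 0.2). The estimate for miR-141 with CBX had the opposite sign, from 931, 425 and 755 CPM at 1 h to 494, 134 and 563 CPM at 22 h (-0.86, SE 0.35, adjusted p = 0.39 by edgeR, exact permutation p = 0.3). The conditions overlapped, and the 134 CPM came from 3 counts in a library of 18796.

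In the 15 time comparisons within groups, 0 of 90 member tests were called (0.170% of all tests), 7 had an unadjusted p-value under 0.05 (7.78%, against 6.65%), and the conditions did not overlap in 5 (5.56%, against 11.1%). In the 3 pooled time contrasts 0 of 18 were called (0.667%) and 1 of 18 had an unadjusted p-value under 0.05 (5.56%, against 17.1%). In the interactions 0 of 18 were called (0.0%). The 1 interaction of 18 under 0.05 unadjusted (5.56%, against 3.89% of all tests) was miR-148b, whose change from 1 to 22 h was 0.84 higher in the DO group than in the control group (SE 0.36, adjusted p = 0.94 by edgeR). miR-148b stood at 570.5, 508 and 645 CPM at 1 h and at 722.5, 1061 and 822 CPM at 22 h in the DO group, without overlap. In the control group it stood at 1068, 847 and 604 CPM and at 680, 784 and 712 CPM, with overlap.

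miR-148a was 1.01 higher (log2, SE 0.33, adjusted p = 0.98 by edgeR, exact permutation p = 0.4) at 6 h and 0.89 higher (SE 0.36, adjusted p = 0.95, exact permutation p = 0.2) at 22 h than at 0 h. The miR-148/miR-152 sum was 0.94 higher at 6 h (SE 0.32, adjusted p = 0.99). Leaving out replicate 3, which removes the libraries of both times, gave 0.78 and 0.37 for miR-148a, and leaving out any 1 replicate gave 0.78 to 1.18 at 6 h and 0.37 to 1.26 at 22 h. The change to 22 h thus moved by more than 1.5 times and that to 6 h did not. Control 0 h replicate 3 held 338 counts of miR-148a and 3 of miR-200c, where the median of the other libraries would give 1759 and 22.2, and these were the second lowest and the lowest of 107 known miRNAs in that library. miR-148b (34 counts against 39.4) and miR-200a (12 against 11.7) were not low there.

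miR-200b could be followed only by its counts, which were 17 or fewer in each library. It stood at 127, 135 and 45.1 CPM in co-culture at 22 h and at 52.7, 82.1 and 12.1 CPM at 1 h. Tested without the filter, its change from 1 to 22 h over the 4 groups was 0.83 (SE 0.32, unadjusted p = 0.012, adjusted p = 0.16 by edgeR), and 0 of 45 comparisons were called. miR-429 had at most 2 counts in a library, and 0 of 44 comparisons were called without the filter.

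Among the 6 members with enough counts, correlations across libraries were found within and between families, and their order changed with the measure and the libraries included. miR-148a and miR-200c, from different families, had a Pearson r of 0.81 and a Spearman rho of 0.73 over 39 libraries (permutation p = 1e-05 for each, the smallest that 100000 permutations can give, adjusted 7.5e-05 and 0.00015 over 15 pairs). Libraries share 3 replicate numbers, and with libraries permuted only within a number the permutation p-values were 2e-05 and 8e-05 (adjusted 0.0003 and 0.0012). The pairs described were picked after their values were seen. Each was the most alike of 427 miRNAs to the other. Without control 0 h replicate 3 and control 6 h replicate 1 r was 0.66, without the 2 libraries farthest from the median of miR-148a 0.70, without the libraries under 25000 counts 0.83, after subtracting condition means 0.82, and within replicates 1, 2 and 3 it was 0.51, 0.56 and 0.89.

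miR-152 and miR-141, also of different families and clusters, had r = 0.80 and rho = 0.54 (permutation p = 1e-05 and 0.00049, adjusted 7.5e-05 and 0.00245; within replicate numbers adjusted permutation p = 0.0028 and 0.017). Without control 6 h replicate 1 and control 0 h replicate 3 r was 0.51, as it was without the 2 libraries farthest from the median of miR-152, and within replicates 1, 2 and 3 it was 0.89, 0.61 and 0.66. The cluster neighbours miR-200c and miR-141 gave r = 0.13 and rho = 0.40 (permutation p = 0.38 and 0.012, adjusted 0.41 and 0.029; within replicate numbers adjusted permutation p = 0.34 and 0.15). Without the same 2 libraries their r was 0.43, and without the libraries under 25000 counts 0.50, with -0.44, 0.44 and 0.49 within replicates 1, 2 and 3.

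The other pairs varied in the same way. For miR-148a and miR-152, of one family, r was 0.37 and rho 0.63 (permutation p = 0.032 and 3e-05, adjusted 0.079 and 0.00023; within replicate numbers adjusted permutation p = 0.020 and 0.0031). Without the 2 libraries that stood apart r was 0.77, and without the libraries under 25000 counts 0.85, both higher than for the pairs above. Within replicates it was -0.14, 0.87 and 0.90. Within the seed pair miR-200a and miR-141 r was 0.46 and rho 0.28 (permutation p = 0.0076 and 0.086, adjusted 0.023 and 0.11), and r was 0.14 without the 2 libraries farthest in miR-200a. Within replicates 1, 2 and 3 it was 0.72, 0.15 and -0.07. Libraries share depth and scaling, whose part in these correlations was not tested.

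**Figure D3:**
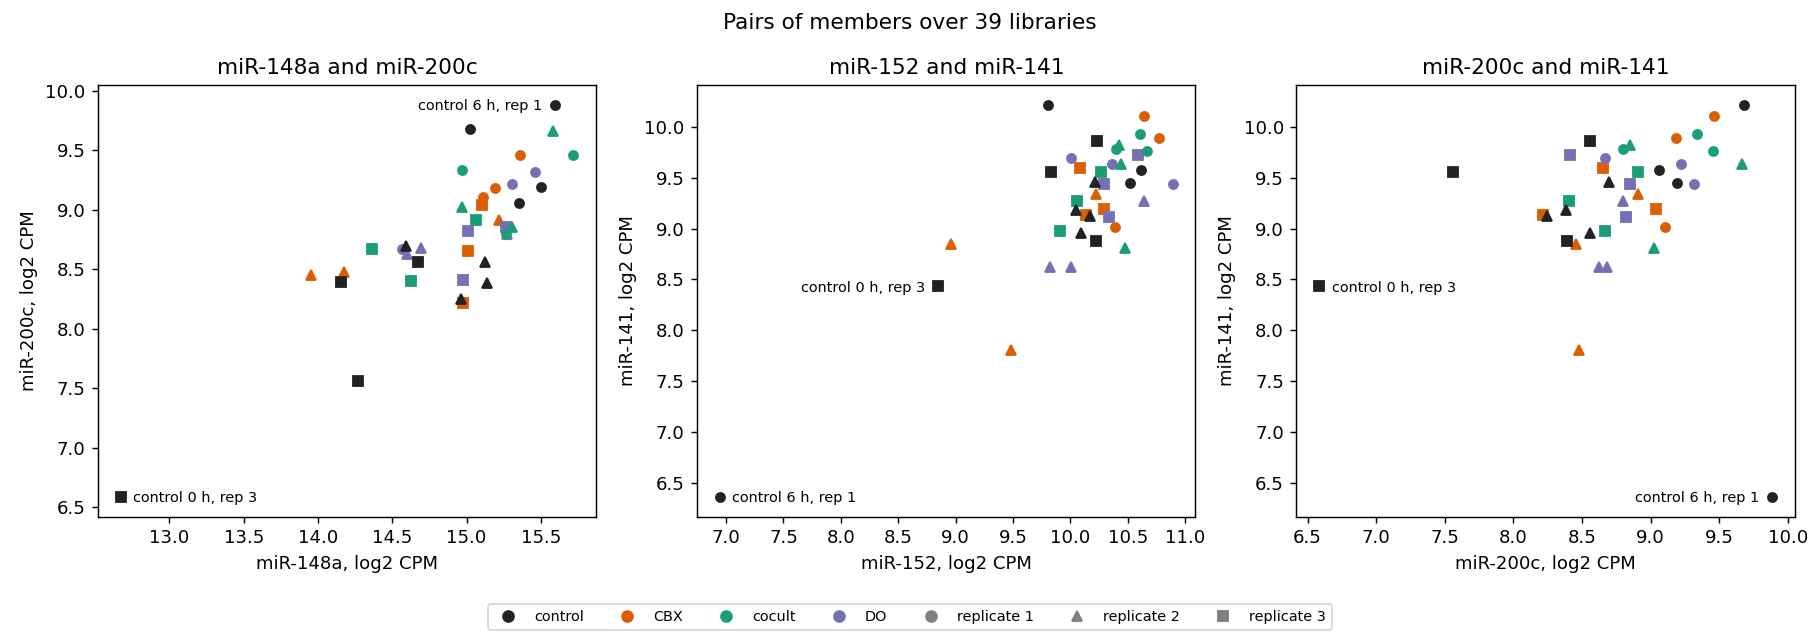
Log2 CPM (prior count of 2) of one member against another in 39 libraries, for miR-148a and miR-200c (left), miR-152 and miR-141 (middle) and miR-200c and miR-141 (right). Colours are groups and symbols replicate numbers; control 0 h replicate 3 lies at the low end of the left panel and control 6 h replicate 1 at the low end of the middle panel, and r is 0.81, 0.80 and 0.13.

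The replicate number moved with the level of some members. It was used in place of the ovary pool, but the labels do not say that a number is an ovary pool. In a fit added after the data were seen, with group, time and replicate over 36 libraries, miR-200c was 0.66 lower (log2, SE 0.16, adjusted p = 0.0065 by edgeR) in replicate 3 than in replicate 1 and was lower in 12 of 12 conditions. miR-148a was 0.45 lower (SE 0.14, adjusted p = 0.042), in 11 of 12 conditions. miR-148b (0.10 higher, SE 0.13, adjusted p = 0.72), miR-152, miR-200a and miR-141 did not pass this test. So 2 of 6 members passed at an adjusted p-value under 0.05 between replicates 1 and 3, against 10% of all 600 miRNAs. Between replicates 1 and 2 it was 1 of 6 (miR-200c, 0.49 lower, SE 0.16, adjusted p = 0.022 by edgeR), against 22.5%, and between replicates 2 and 3 it was 0 of 6, against 14.0%. The pooled group contrasts of these members ran from -0.25 to 0.34 for miR-200c and from -0.09 to 0.14 for miR-148a. From replicate 1 to 3 the family sums gave -0.48 (SE 0.14, adjusted p = 0.024 by edgeR) for miR-148/miR-152 and -0.37 (SE 0.12, adjusted p = 0.037) for miR-200. The miR-200b, miR-200c and miR-429 sum gave -0.67 (SE 0.16, adjusted p = 0.0064 by edgeR), and miR-200a with miR-141 did not pass. From replicate 1 to 2 only the miR-200 sum passed (-0.43, SE 0.12, adjusted p = 0.0080 by edgeR).

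Depth moved with the levels as well. Replicate 1 libraries had a median of 91725 counts, replicate 2 of 58261 and replicate 3 of 70069. Over 39 libraries the miR-200 sum had r = 0.55 and rho = 0.70 with depth on log scales (permutation p = 0.00036 and 1e-05, adjusted 0.0014 and 5.33e-05 over 8 relations), r = 0.71 without the 2 libraries farthest from the median depth, and r = 0.39, 0.79 and 0.78 within replicates 1, 2 and 3. For the miR-148/miR-152 sum r was 0.33 and rho 0.49 (permutation p = 0.043 and 0.0017, adjusted 0.066 and 0.0034), r was 0.35 without the 2 farthest libraries, and 0.18, 0.60 and 0.65 within replicates. Among members r was 0.61 for miR-152, 0.56 for miR-141, 0.48 for miR-200a and 0.32 for miR-148a (rho 0.66, 0.66, 0.36 and 0.47). For miR-148b and miR-200c r was -0.02 and 0.07 (rho 0.19 and 0.31), and 0.26 and 0.22 without the 2 farthest libraries. Within replicates 1, 2 and 3 r was -0.34, 0.48 and 0.19 for miR-148b and -0.60, 0.20 and 0.64 for miR-200c. The part of depth in the comparisons was not tested.

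**Figure D4:**
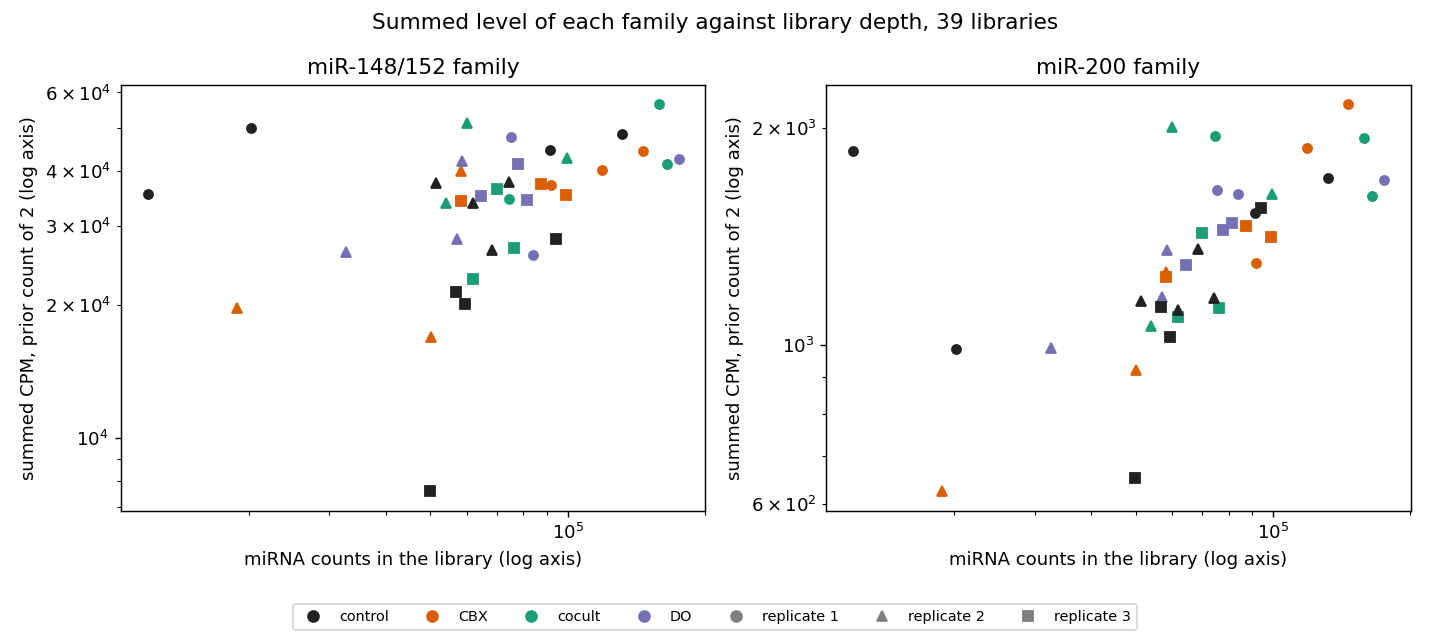
Summed CPM of the miR-148/miR-152 family (left) and the miR-200 family (right) against the miRNA counts of the library, both axes logarithmic and levels with a prior count of 2, for 39 libraries (colours are groups, symbols replicate numbers). Points of the miR-200 family climb with depth (r = 0.55) and those of the miR-148/miR-152 family less so (r = 0.33).

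Lists of other miRNAs with related roles, drawn up with earlier results of these data known, were read in the same fits. Of 6 miRNAs that mark epithelial cells like the miR-200 family does, miR-205, miR-31, miR-182, miR-183 and miR-96 were present in all 39 libraries, with mean levels of 5382, 2150, 726, 459 and 190.4 CPM. miR-375 had 3 counts in all. The 5 tested ones gave 0 calls between groups in 88 tests (0.266% of all tests) and 0 over time in 75 (0.170%). From 1 to 22 h over the 4 groups, 0 of 5 were called in either direction, against 1.67% of all miRNAs. miR-205 and miR-31 each had a higher mean level than the summed miR-200 family.

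Of 4 miR-29 members, which target DNA methyltransferases as the miR-148/miR-152 family does, miR-29b and miR-29c passed the filter in the pooled fits, at mean levels of 175 and 161 CPM. miR-29c fell from 1 to 22 h over the 4 groups by 1.096 on the log2 scale (SE 0.24, adjusted p = 0.013 by edgeR), and was called. miR-29b was at -0.65 (SE 0.23, adjusted p = 0.067). Over the same interval miR-148a had the opposite sign (0.31, SE 0.14, not called), and the difference between them was not tested. No miR-29 member was called between groups (0 of 21 tests at one time, against 0.266% of all tests, and 0 of 12 pooled, against 0.139%).

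Among 422 miRNAs with at least 10 counts in at least 20 libraries, members excluded, the ones most alike to the miR-148/miR-152 sum over 39 libraries were predicted miR-871 (r = 0.74), predicted miR-802 (0.63) and predicted miR-322 (0.62). For the miR-200 sum they were predicted miR-802 (0.73), predicted miR-514 (0.72) and predicted miR-735 (0.72). By rank correlation the first place went to miR-16a (0.71) and to miR-205 (0.70). Over 36 libraries it went to predicted miR-442 (0.67) and to predicted miR-514 (0.82). Predicted miR-871, miR-802 and miR-322 were then not among the first 3 for the miR-148/miR-152 sum. Predicted miR-941 and predicted miR-940 held its places 2 and 3 both by rank correlation and over 36 libraries. Predicted miR-514 and predicted miR-735 had the same median level of 6467 CPM. All of these share libraries and depth with the members.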

How the data were processed

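The authors trimmed and deduplicated reads by unique molecular identifiers with UMI-tools, aligned them to ARS-UCD1.2 (Ensembl release 105) and counted them with miRPro on miRBase 22.1 miRNAs and on predicted ones. The deposited values are raw counts per mature miRNA. How reads shared by near-identical miRNAs were assigned is not given in the sources used here. Groups and replicate numbers came from the labels, and nothing says that replicates shared no animals. All per-sample columns were used.

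Both tables were joined. TMM scaling, filterByExpr (minimum count 10, total 15) and the quasi-likelihood test of edgeR 4.0.16 in R 4.3.3 (legacy behaviour) were used. Replicate number was entered as the block, in place of the ovary pool of the authors' model. The labels do not say that a number is an ovary pool. Benjamini-Hochberg adjustment was made over all miRNAs tested. The pairing was checked: deviations of same-numbered libraries from their group means correlated at 0.098 to 0.49 on average in the 18 group comparisons (median 0.26), and 42 of 54 pairs exceeded 0.1. Fits were tested on simulated counts with planted changes larger than those reported here and without a replicate effect. That test does not speak to changes of the sizes reported here. DESeq2 1.42.0 and other settings served as alternatives. Members, lists and rules for naming were chosen with earlier results of these data known. Statistics were printed for members with an unadjusted p-value under 0.05 and for family sums in pooled contrasts and at 22 h, and miR-141 at 22 h, miR-152 and miR-141 at 6 h and the correlated pairs were singled out after their values were seen. Correlations, flagged effects and a permutation within replicate numbers, added after the data were seen, used log2 CPM with a prior count of 2 and exact tests one of 0.5. Mature sequences were not used here.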

Additional observations from a re-analysis of the deposited data

Results flagged for a closer look

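Of 288 pairs of effects examined over 6 members and both family sums, 7 (2.43%) had all 3 replicate pairs moving one way in one setting and the opposite way in the other, on log2 CPM with a prior count of 2. The differences between the settings were not tested for these pairs, and values are mean log2 differences. No share over all miRNAs is at hand for this rule, so the 7 cases are not read as effects of group or time. miR-148b changed by -0.23 from 1 to 6 h with CBX and by 0.21 in the DO group. Without a prior count CBX replicate 2 stood at 628 and 631 CPM there, so that 1 of the 3 CBX pairs was higher at 6 h and this case depends on the prior count; the other 6 do not. miR-148b changed by -0.36 and 0.55 from 1 to 22 h in the same groups. From 6 to 22 h it changed by -0.13 with CBX, by 0.42 in co-culture and by 0.34 in the DO group, which accounts for 2 of the 7. Co-culture libraries held less miR-141 than CBX libraries at 6 h (-0.33) and more at 22 h (0.98). The miR-200 sum was higher with CBX than in the control group at 6 h (0.47) and lower at 22 h (-0.46), and it was higher in the DO group than in co-culture at 6 h (0.20) and lower at 22 h (-0.32). Control 6 h replicate 1, with 0 counts of miR-141 and miR-200a, enters the control to CBX value of the miR-200 sum at 6 h, and CBX 22 h replicate 2, with 12 counts of the family, the one at 22 h. CBX 22 h replicate 2 also enters the 22 h values of miR-148b and miR-141 with CBX, and neither library enters the comparison of co-culture and DO.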

How the results depend on the processing

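Counts of called members and family sums were 0 in every kind of comparison when 1 choice was changed at a time, including no replicate block, DESeq2, other scalings and filters, and no fold threshold. Dropping the fold threshold together with the libraries under 25000 counts, or with replicate 1, would add the adjusted p-values under 0.05 given in the report as calls. Of the values that answer a comparison, 366 kept their direction and side of the threshold and 38 changed sign, all of them family sums with small differences, and the cause was not tested. With library sizes from deduplicated reads, which moved the median of all miRNAs at 22 h by -0.62 from control to CBX and by -0.34 from control to DO, the miR-148/miR-152 sum gave -0.15 for control to DO at 22 h and -0.032 for 6 to 22 h (known miRNAs only: -0.0050), and the miR-200 sum -0.11 for 1 to 22 h (total counts: -0.0098). For control to DO at 22 h the miR-200 sum gave 0.0075 with no filter, 0.0079 with at least 50 counts and 0.074 with known miRNAs only, which also gave 0.078 for 1 to 6 h.

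Pooled from CBX to DO the miR-200 sum gave 0.00082 with RLE, 0.014 with total counts, 0.021 with deduplicated reads, 0.047 with no filter, 0.019 with at least 50 counts, 0.068 with known miRNAs and 0.041 in one fit. Pooled from control to DO the miR-148/miR-152 sum gave 0.041 with no filter, 0.040 with known miRNAs and 0.020 in one fit. Without the 3 libraries under 25000 counts it gave 0.096 there, 0.17 for control to CBX, -0.016 for CBX to co-culture and -0.074 for CBX to DO.

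Leaving out 1 replicate at a time, the miR-148/miR-152 sum ranged from -0.47 to 0.0023 for control to CBX at 22 h and, pooled, from -0.36 to 0.13 for control to CBX, -0.32 to 0.24 for control to DO, -0.030 to 0.28 for control to co-culture, -0.15 to 0.33 for CBX to co-culture, -0.051 to 0.11 for CBX to DO and -0.29 to 0.10 for co-culture to DO. The miR-200 sum ranged from -0.14 to 0.14 for control to DO at 22 h and, pooled, from -0.094 to 0.27 for CBX to co-culture, -0.072 to 0.093 for CBX to DO and -0.27 to 0.022 for co-culture to DO.

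Same-numbered libraries were not all paired by the check, and the replicate block changed no call: without it the 22 h contrast of control and CBX was -0.18 for miR-148/miR-152 and -0.31 for miR-200. Depth limited miR-200b and miR-429, and without TMM 3 counts were up to 250.3 CPM in the shallowest library.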
